A study of Mus musculus with 4 samples.

Results

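The quantity described here is the genotype dependence of the UVB response in mouse keratinocytes. For each gene it is the log2 ratio of UVB-irradiated to unirradiated cells in KO-labelled cultures minus the same log2 ratio in wild-type (WT) cultures. It uses all 4 arrays of the series, which are 1 array of unirradiated WT cells, 1 of WT cells 4 h after UVB at 75 mJ/cm2, 1 of unirradiated cells labelled p38a-KO and 1 of cells labelled p38a-KO 4 h after the same dose. All 4 groups are primary keratinocytes, the epithelial cells of the epidermis, grown from newborn animals of strain C57BL/6. The labels do not say how or in which cells the gene was deleted, how many animals were pooled, or whether unirradiated cells were handled alongside the irradiated ones. Of 18193 genes named on the array, 11379 had a mean signal at or above a floor of 24.9 units, and these are the genes tested. A value of -1 means that the ratio after UVB was 2-fold lower in KO-labelled cells than in WT cells, and 1 means that it was 2-fold higher. With 1 array per group there is no replicate of this difference, so no p-value or standard error is given, and a spread between cultures cannot be measured.

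The p38 kinases are MAP kinases that are activated by ultraviolet light, osmotic stress and inflammatory cytokines. They act through kinases such as MK2 and MSK1 on transcription factors, chromatin and proteins that control mRNA decay, and p38alpha, encoded by Mapk14, is the form found in most tissues. In skin, UVB leads keratinocytes to make cytokines, chemokines, growth factors and prostaglandins, and p38 is also known for a role in keratinocyte differentiation. UVB lesions in DNA also block transcription.

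The median log2 ratio of irradiated to unirradiated signal was -0.70 for WT and -0.82 for KO-labelled cells, so most genes were dimmer with UVB. Median probe set signal was 18.7 units on both irradiated arrays, 30.3 on the unirradiated WT array and 34.5 on the unirradiated KO-labelled array. A constant scaling of an array moves every gene's difference by the same amount, and the median difference over the 11379 genes was -0.08. For 18 probe sets of spiked bacterial transcripts, a control of hybridisation, the median difference was 0.08 and the values ranged from -0.09 to 0.28. Of the tested genes, 9488 were at or above the floor on all 4 arrays. A further 587 gave only a lower bound and 500 only an upper bound of the difference, and 804 had values below the floor that left no bound.

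Mapk14 itself read 985 units without UVB and 293 with UVB in WT, and 1449 and 647 in KO-labelled cells. Its signal was therefore higher under the KO label in both conditions, and its response differed by 0.59. Of its 6 probe sets, 5 were at or above the floor on average, and 3 of these 5 had a difference above 0. The array reads the 3' end of transcripts and the deleted part of the gene is not given in the sources used here, so these probe sets are no test of the deletion. For that reason the term KO-labelled is used, and each direction below rests on the labels.

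At a threshold of 2-fold, the response was lower in KO-labelled than in WT cells for 296 genes, or 2.6% of those tested, and higher for 141 genes, or 1.24%, together 3.84%. Of the lower genes, 202 were at or above the floor on all 4 arrays and 94 were bounds, and of the higher genes 83 and 58. The split depends on scaling: quantile normalization gave 278 lower and 261 higher genes, and median centring gave 285 and 209. Of the 296 lower genes 194 and 208 were among these, and of the 141 higher genes 133 and 125. In the 296 lower genes WT had a median response of 0.18 and KO-labelled cells one of -1.10, and 184 of them had a WT response above 0 against 15 with such a KO-labelled response. In the 141 higher genes the medians were -1.48 for WT and -0.26 for KO-labelled cells. These medians use the arrays that chose the genes and are given as a description.

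**Figure D1:**
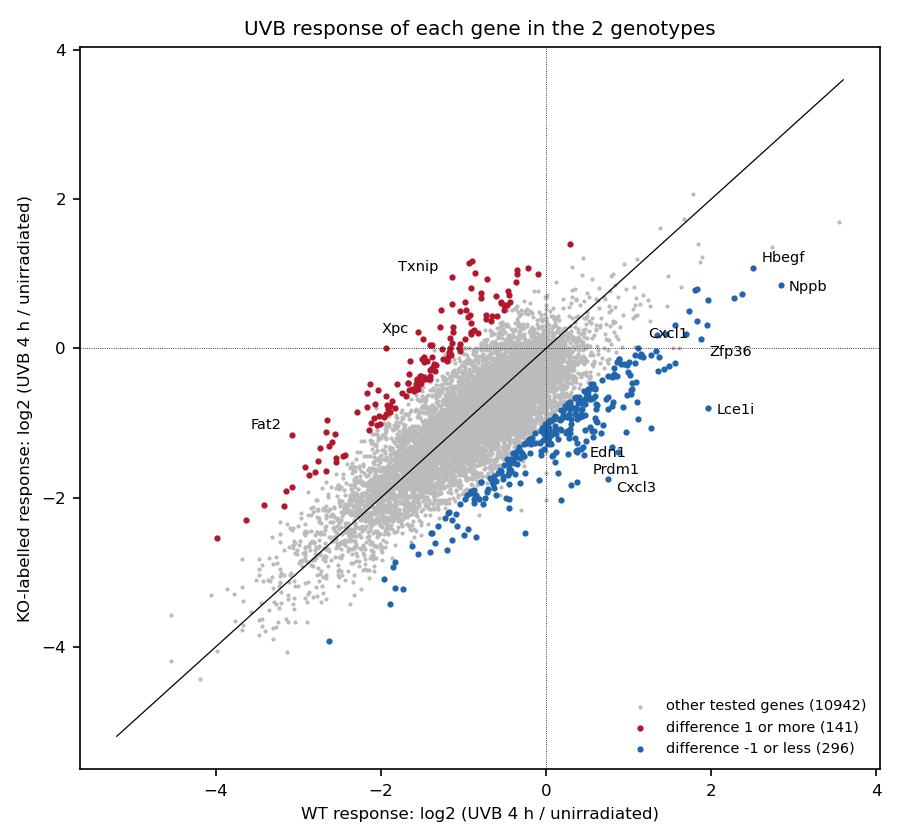
Log2 response to UVB of each tested gene in WT (x axis) and KO-labelled cells (y axis), 1 array per group; the line marks equal responses and colours mark the 296 genes at -1 or less and the 141 at 1 or more. Most genes lie below 0 on both axes, and the lower genes (blue) run from the block of shared decreases to genes such as Nppb and Zfp36, which were higher after UVB in WT. Grey points beyond the threshold have values below the floor that leave no bound in that direction.

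The share of genes past the threshold varied with their brightness. Among the 3299 genes with a mean signal of 400 units or more, a limit chosen after the values were seen, 28 were lower (0.849%) and 1, the splicing cofactor gene Srrm1, was higher (1.10, with 3 of 5 probe sets above 0). Among the 2009 genes between the floor and 50 units, 106 were lower (5.28%) and 46 higher (2.29%). The SD of the difference over genes was 0.60 in that dimmest bin and 0.21 above 3200 units. In all 28 bright lower genes KO-labelled signal was below WT after UVB, and in 24 of the 28 the genotypes were within 1.5-fold of each other before it. Choosing genes by a low difference on these arrays favours the former. Close unirradiated values are common, and the share of all bright genes within 1.5-fold before UVB was not counted. The 24 of 28 is therefore a description only. Relative to the median, the genotypes differed past 2-fold before UVB only in 1.46% of all tested genes, and at both times in 0.536%. Quantile normalization kept 12 of the 28, which were Nppb, Ppif, Edn1, Gjb2, Zfp36, Phlda1, Cish, Plk3, Nup54, Hbegf, Fst and Ccn2, and median centring kept 21. For Nup54 only 2 of 4 probe sets lay below 0, and the second-brightest lay at 0.08.

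The largest difference measured on all 4 arrays was that of Lce1i, a late cornified envelope gene of the epidermal differentiation complex, from 1 probe set of the _x_at kind, whose probes can match several transcripts. It read 93.4 units without UVB and 365 with UVB in WT, and 76.6 and 44.2 in KO-labelled cells. The irradiated WT array stood alone above the other 3, and the ratio after UVB was 6.78-fold lower in KO-labelled cells. Nppb, which encodes the natriuretic peptide BNP, read 416 and 2978 units in WT without and with UVB, and 757 and 1368 in KO-labelled cells. It was higher after UVB in both genotypes, 7.16-fold in WT and 1.81-fold in KO-labelled cells, a difference of -1.99. Prdm1, a transcriptional repressor of the terminally differentiating epidermis, read 209 and 288 units in WT and 134 and 49.9 in KO-labelled cells, a difference of -1.89. Ppif, the mitochondrial cyclophilin gene, read 1089 and 2337 in WT and 1054 and 641 in KO-labelled cells, with a difference of -1.82 and of -1.65 by its second probe set. Gjb2, which encodes connexin 26, read 827 and 1075 in WT and 798 and 305 in KO-labelled cells, a difference of -1.77. In Ppif and Gjb2 the unirradiated values of the genotypes were close, and the irradiated values lay on opposite sides of them.

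The rest of the 12 largest lower genes, counting only genes whose probe sets all had that sign, were Sgtb (-2.17), Dennd6b (-2.14), Scaf1 (-1.81), Edn1 (-1.77), Sprr2i (-1.76), Zfp36 (-1.75) and Il24 (-1.74). Sgtb and Dennd6b were dim, with irradiated values of 69.2 and 55.1 units in WT and of 25.9 and 25.5, just above the floor, in KO-labelled cells. For Scaf1 the larger gap was in unirradiated cells, at 162 units in KO-labelled and 79.6 in WT cells, against 51.0 and 87.9 after UVB. Without _x_at probe sets Dennd6b lay at -0.52 and Lce1i could not be tested. For Dennd6b that value is a lower bound, because irradiated WT cells read 20.2 units, below the floor, so its sign is not settled. Signs of probe sets were taken after values were raised to the floor. Bounds of the same direction were found for Cxcl3, at least 5.67-fold lower, Adamtsl4 at least 5.08-fold, Dact1 at least 4.80-fold, Bcl3 at least 4.65-fold, Klk1b21 at least 4.63-fold and Pigz at least 4.34-fold.

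**Figure D2:**
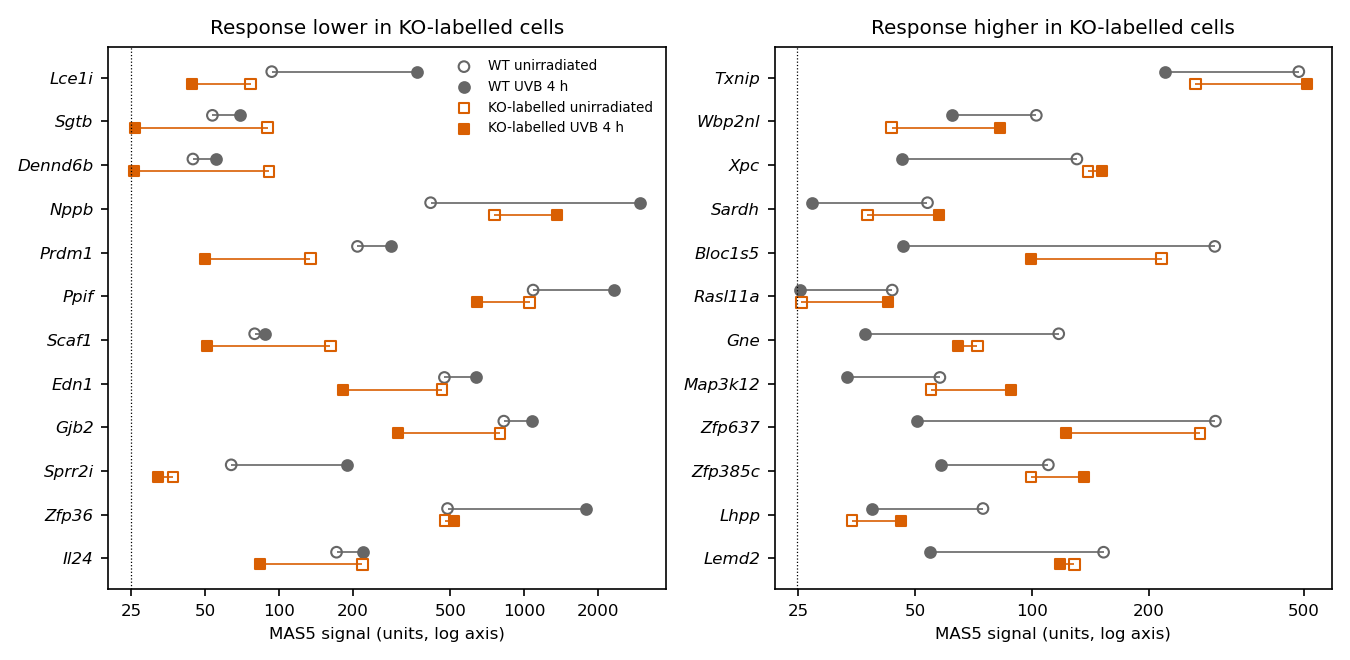
MAS5 signal on a log axis for the 12 largest differences in each direction that were at or above the floor (dotted line) on all 4 arrays with all probe sets of that sign; open symbols are unirradiated, filled symbols 4 h after UVB, circles WT and squares KO-labelled cells, 1 array each. Signs were taken after values were raised to the floor. On the left, Lce1i, Nppb, Ppif and Zfp36 move to the right with UVB in WT and move left or less far in KO-labelled cells; on the right, Txnip goes from 485 to 220 units in WT and from 263 to 509 in KO-labelled cells.

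Chemokine genes were among those with the widest gap between the responses. Of 12 tested, 4 were lower and 0 higher, and the list's median difference was -0.58 against -0.08 for all genes. Over all tested genes 2.6% were lower and 1.24% higher, and each list count here and below is to be read beside these shares. A count of 1 says little about a list. Here and below, list members given by value although short of the threshold were in part chosen after their values were seen, to show how a list's members vary. Cxcl1, Cxcl2 and Cxcl3, which attract neutrophils through the receptor CXCR2, lie close together on chromosome 5. Their promoter windows, from 250 bases before to 50 after a RefSeq transcript start (GRCm38.p6), are shown because these neighbours lie on the same side of the threshold, and that of Mmp10 because it holds a match to another motif. Capitals mark matches on either strand to an NF-kB motif (GGG, any 2 bases, then TTTCC), an AP-1 motif (TGANTCA), a cAMP response element (TGACGTCA) or a TATA motif (TATAAA).
Cxcl1 (chr5:90890995-90891294, plus strand): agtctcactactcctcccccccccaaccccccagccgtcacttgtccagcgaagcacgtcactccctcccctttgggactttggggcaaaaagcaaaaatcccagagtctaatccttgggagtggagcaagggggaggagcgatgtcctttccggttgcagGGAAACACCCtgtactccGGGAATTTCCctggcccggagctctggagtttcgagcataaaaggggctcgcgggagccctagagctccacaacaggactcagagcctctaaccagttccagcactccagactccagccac
Cxcl2 (chr5:90903649-90903948, plus strand): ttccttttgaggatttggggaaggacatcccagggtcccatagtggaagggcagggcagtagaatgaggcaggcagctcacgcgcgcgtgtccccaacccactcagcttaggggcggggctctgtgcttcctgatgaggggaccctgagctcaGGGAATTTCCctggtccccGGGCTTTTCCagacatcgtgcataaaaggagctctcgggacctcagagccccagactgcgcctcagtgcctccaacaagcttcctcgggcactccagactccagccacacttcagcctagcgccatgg
Cxcl3 (chr5:90785851-90786150, plus strand): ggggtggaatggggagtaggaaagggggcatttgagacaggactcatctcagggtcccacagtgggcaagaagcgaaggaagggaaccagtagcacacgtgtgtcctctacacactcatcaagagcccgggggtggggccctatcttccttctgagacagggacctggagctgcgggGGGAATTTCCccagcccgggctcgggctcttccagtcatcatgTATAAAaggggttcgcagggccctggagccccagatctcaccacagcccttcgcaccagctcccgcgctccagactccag
Mmp10 (chr9:7502092-7502391, plus strand): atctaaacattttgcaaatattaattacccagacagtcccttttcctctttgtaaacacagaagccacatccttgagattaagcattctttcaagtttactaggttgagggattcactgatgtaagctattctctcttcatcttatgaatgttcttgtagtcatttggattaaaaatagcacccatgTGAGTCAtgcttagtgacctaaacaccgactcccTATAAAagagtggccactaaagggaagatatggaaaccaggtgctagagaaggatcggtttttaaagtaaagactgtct

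In these windows Cxcl1 and Cxcl2 each held 2 NF-kB matches, starting 89 and 71 bases before the transcript start in Cxcl1 and 97 and 78 bases before it in Cxcl2. Cxcl3 held 1 NF-kB match, 73 bases before the start, and a TATA match, and Mmp10 an AP-1 match 63 bases and a TATA match 29 bases before it. The NF-kB motif was present in 10 of 292 windows of the lower genes (3.42%) and in 1.70% of the 11779 windows of all tested genes, and in 1.47% of those of the higher genes. For AP-1 the shares in windows of lower, all tested and higher genes were 6.85%, 5.20% and 2.21%. For the cAMP response element they were 4.45%, 3.06% and 2.94%, and for TATA 8.90%, 7.39% and 10.3%. Windows were at hand for 234 of the 296 lower genes. A match is a description of these letters only.

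Cxcl1 read 747 and 1613 units in WT without and with UVB, and 764 at both in KO-labelled cells. The irradiated WT value stood alone above the rest, and the difference of responses was -1.11, with all 3 probe sets below 0 and the second at -1.10. Cxcl2 read 287 and 1117 in WT without and with UVB, and 162 and 255 in KO-labelled cells, a difference of -1.31. Under quantile normalization Cxcl1 lay at -0.87 and Cxcl2 at -0.94, short of the threshold, as did Cxcl1 at -0.77 in the mean over probe sets. Cxcl3 read 174 and 293 in WT and 83.9 and 18.5, the latter below the floor, in KO-labelled cells. Ccl20, which attracts cells through CCR6, read 109 and 298 in WT and 79.1 and 90.5 in KO-labelled cells, a difference of -1.25. The monocyte chemokine Ccl2 lay at -0.81, while Cxcl10, Ccl4 and Cxcl14 lay between -0.10 and 0.18.

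Cytokines outside the IL-1 family had the lowest median of any list, -0.77 over 8 tested members, of which 3 were lower and 0 higher, or 1 lower under quantile normalization and 1 after centring. Tnf, a central inflammatory cytokine, read 7.77, below the floor, and 95.9 units in WT and 32.4 and 40.4 in KO-labelled cells, so its response was at least 3.09-fold lower. Il24, of the IL-20 subfamily, read 172 and 221 in WT and 219 and 84.1 in KO-labelled cells. Tslp, an epithelial cytokine of allergic inflammation, read 963 and 926 in WT and 1163 and 541 in KO-labelled cells, a difference of -1.05 that was -0.85 under quantile normalization. Lif lay at -0.90 and Il23a at -0.08. In the IL-1 and IL-36 family 1 of 14 members was lower, Il1a at -1.02 (-0.96 under quantile normalization and under centring), and the median was -0.04. Il1b lay at 0.35 and Il33 at 0.08.

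Of the EGF receptor ligands 3 passed the threshold, and the receptors did not. Hbegf read 422 and 2394 units in WT and 591 and 1248 in KO-labelled cells, 5.68-fold and 2.11-fold higher after UVB. Its difference was -1.43, and -1.38 by the second probe set. Ereg read 134 and 433 in WT and 144 and 165 in KO-labelled cells, a difference of -1.49. Epgn read 2124 and 3996 in WT and 2349 and 2037 in KO-labelled cells, a difference of -1.12 that was -0.91 under quantile normalization. Another ligand, Tgfa, lay at -0.97. The receptors Egfr, Erbb2 and Erbb3 lay at 0.60, 0.70 and 0.48, but only 2 of the 6 probe sets of Egfr were above 0. Over the list, 3 of 10 were lower and 0 higher, with a median of -0.04.

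Other secreted products and their enzymes differed too. Among vasoactive peptides and receptors 4 of 11 were lower and 0 higher, with a median of -0.65, and without _x_at probe sets 2 of 10 were lower. Edn1, the endothelin 1 gene, read 473 and 635 units in WT and 463 and 182 in KO-labelled cells, a difference of -1.77, with only the irradiated values apart. Edn3 lay at -1.16, and Adm, the adrenomedullin gene, just past the threshold, at -0.70 by its second probe set. Ptgs2, which encodes cyclooxygenase 2, read 2187 and 4222 in WT and 1778 and 1535 in KO-labelled cells. Its difference was -1.16 (-0.88 under quantile normalization) and that of the second probe set -1.43, and it was the 1 lower gene of 8 in prostaglandin synthesis. Mmp10, the stromelysin 2 gene, read 73.3 and 178 in WT and 43.9 and 41.4 in KO-labelled cells, a difference of -1.36. Plaur, the urokinase receptor gene, lay at -1.32. Of 14 tested genes of matrix metalloproteinases and the urokinase system 3 were lower and 0 higher, with a median of -0.20. Fst, which encodes the activin antagonist follistatin, was lower after UVB in both genotypes, from 4587 to 3013 units in WT and from 4276 to 1098 in KO-labelled cells. Its difference was -1.35, and -1.57 by the second probe set.

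Several genes that limit MAP kinase signalling or destabilise mRNA had a lower response in KO-labelled cells. Of 12 MAPK phosphatases 3 were lower (2 under quantile normalization, 1 after centring) and 0 higher, with a median of -0.75, and 10 of the 12 lay below 0, as did 59.8% of all tested genes. Dusp8 read 184 and 265 units in WT and 349 and 169 in KO-labelled cells, a difference of -1.58. Dusp2 and Dusp5 lay at -1.16 and -1.03, but at -0.93 and -0.97 after median centring. The log2 ratio of KO-labelled to WT signal was 0.92 for Dusp8 and 0.87 for Dusp2 before UVB. After UVB it was -0.65 and -0.29, so for both genes the larger gap was in unirradiated cells. Dusp1, whose product removes phosphate from p38 and JNK, read 608 and 1450 in WT and 429 and 552 in KO-labelled cells, a difference of -0.89. Dusp6, selective for ERK, also lay at -0.89. Zfp36 encodes tristetraprolin, which promotes decay of cytokine mRNAs and is a substrate of the p38 and MK2 pathway. It read 487 and 1792 units in WT and 475 and 519 in KO-labelled cells, a difference of -1.75. Its relatives Zfp36l1 and Zfp36l2 lay at -0.55 and -0.52. Of 16 decay factors Zfp36 was the only one past the threshold, a share near that of all genes, and 2 passed it without _x_at probe sets. The NF-kB subunits and feedback genes had 7 members above and 7 below 0 and a median of -0.01, and their 1 lower gene was Bcl3, a nuclear IkB family member, which read 102 and 85.0 in WT and 138 and 22.3, below the floor, in KO-labelled cells.

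Immediate early genes differed among themselves. Of 24 tested, 4 were lower and 0 higher, with a median of -0.23. Fosl1, the AP-1 subunit Fra-1, read 201 and 406 units in WT and 265 and 207 in KO-labelled cells, a difference of -1.37 and of -1.64 by the second probe set. Ccn2 lay at -1.27, mainly from unirradiated cells, at 2063 units in KO-labelled and 998 in WT cells. After UVB it read 512 and 598. Nr4a1 and Klf6 lay at -1.15 and -1.01 (Klf6 at -0.83 under quantile normalization), Ier3 at -0.93 and Junb at -0.73. By contrast Fos read 465 and 1480 in WT and 303 and 1005 in KO-labelled cells, a difference of 0.06. Egr1, Atf3 and Myc lay at 0.25, 0.17 and 0.31. The gap between Fosl1 and Fos was not tested. Among p53 targets 3 of 22 were lower, against 2.6% of all tested genes. They were the kinase gene Plk3 (-1.65), the pro-apoptotic Bbc3 (-1.08) and Sesn2 (-1.03, but -0.55 under quantile normalization). The median of that list was -0.07.

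Late differentiation genes had 7 lower and 0 higher members of 31 tested, with a median of -0.58. Lce1i, Lce1h and Lce3b rest on 1 _x_at probe set each, and without such probe sets 4 of 26 were lower. Median centring gave 4 lower and 1 higher of 31. Their products build the cornified envelope of the outermost epidermis. Lce1f read 192 and 686 units in WT and 168 and 217 in KO-labelled cells, a difference of -1.47, and -1.55 by the second probe set. Sprr2i read 63.8 and 189 in WT and 36.9 and 32.2 in KO-labelled cells. Sprr2f read 40.8 and 212 in WT and 111 and 184 in KO-labelled cells, so its irradiated values were close and the difference of -1.65 lay mainly in the unirradiated cells. Lce1h lay at -1.68 and Lce3b at -1.02, or -0.89 under quantile normalization. Cnfn, the cornifelin gene, was already lower without UVB, at 1944 and 2029 in WT and 639 and 328 in KO-labelled cells, a difference of -1.02 that was -0.50 under quantile normalization. Lce3c was higher after UVB in both genotypes, from 78.5 to 922 units in WT and from 8.61 to 80.6 in KO-labelled cells, but the KO-labelled response starts below the floor, so the sign of the difference is not settled. Genes within a group such as Lce1 or Sprr2 can be closely alike in sequence, and signal can be shared between members of a group. Transglutaminase and scaffold genes lay nearer 0, with Tgm1 at -0.44, Ivl at -0.03, Ppl at -0.02 and Evpl at 0.38.

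Earlier layers of the epidermis had medians nearer 0. Basal genes had a median of 0.06, with 0 of 15 past the threshold, and Krt5 and Krt14, the defining basal keratins, lay at 0.10 and 0.01. In the suprabasal list 2 of 19 were lower, Prdm1 and Grhl3, a transcription factor of barrier formation at -1.33. The median of that list was -0.26, and 14 of its 19 members lay below 0, as did 59.8% of all tested genes. The suprabasal keratins Krt1 and Krt10 went the other way from most of that list, without passing the threshold. Krt1 read 1287 and 708 units in WT and 1814 and 1730 in KO-labelled cells, a difference of 0.79, and Krt10 lay at 0.54. Among alarmins and antimicrobial genes, Saa3 (-1.61), Defb3 (-1.58) and Lcn2 (-1.14) were lower, and the median of 22 tested was -0.08. Of the epidermal proteases and inhibitors 2 of 22 were lower, the inhibitor Csta1 at -1.02 and the desquamation protease Klk7 just past the threshold, at -0.78 and -0.75 under quantile normalization. Over all lists, 35 of 49 lower members stayed past 2-fold under quantile normalization and 39 after centring. Of all 296 lower genes, in lists or not, 194 and 208 did so, and the list counts are to be read beside these.

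**Figure D3:**
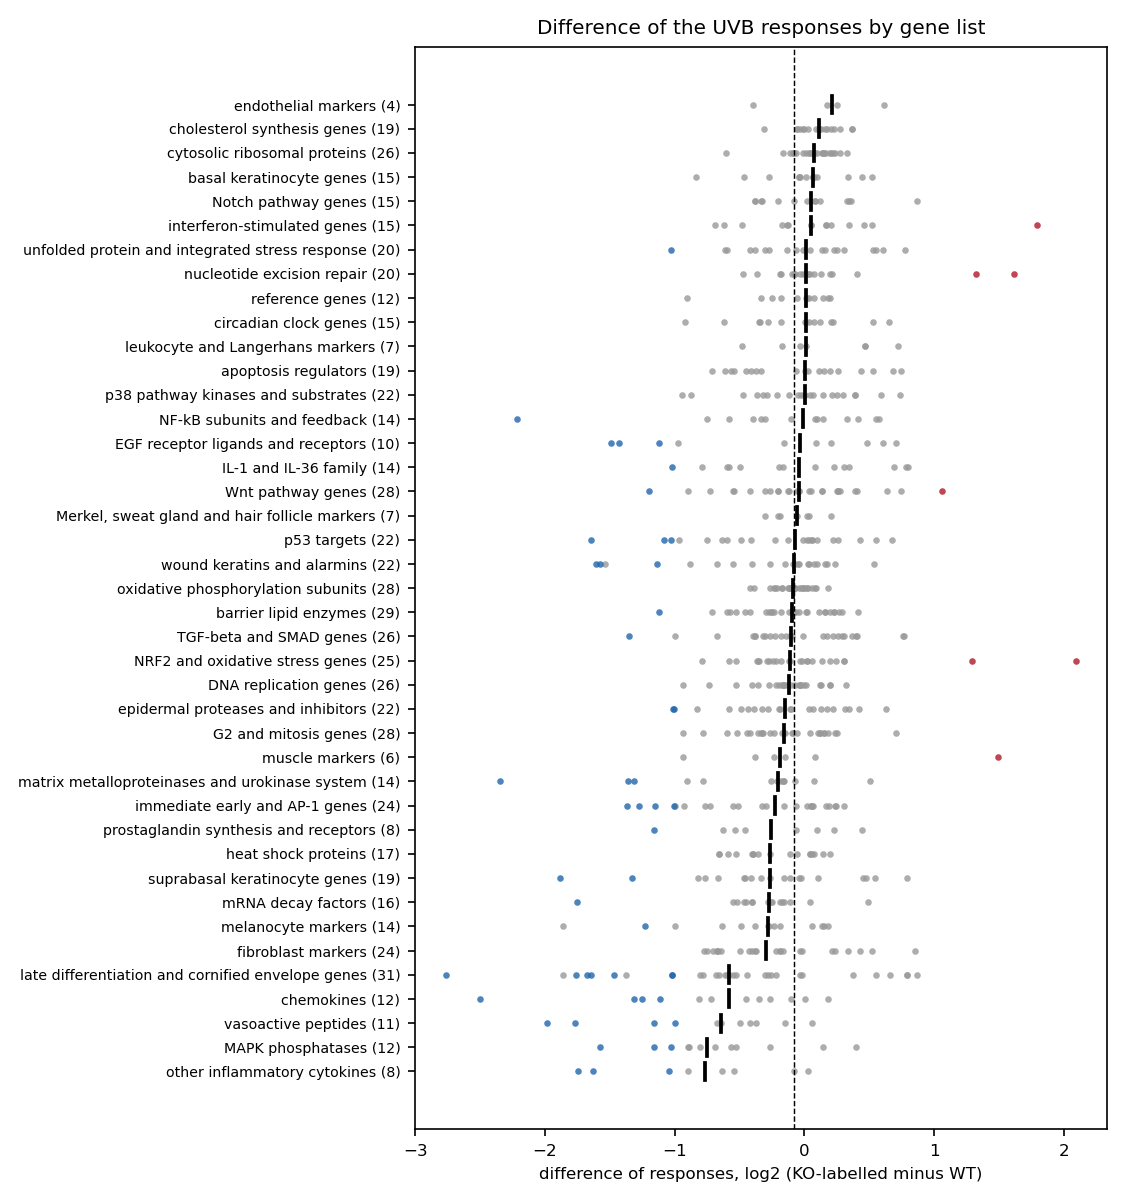
Difference of the UVB responses (log2, KO-labelled minus WT) for the tested members of each gene list, with the number tested in brackets; each point is 1 gene, black bars are list medians, the dashed line is the median of all 11379 genes, blue points are 2-fold lower and red points 2-fold higher. Medians are lowest for other inflammatory cytokines (-0.77), MAPK phosphatases (-0.75), vasoactive peptides (-0.65), chemokines and late differentiation genes (both -0.58). Grey points beyond -1 are values below the floor that do not settle the difference.

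Txnip had the largest positive difference measured on all 4 arrays. It encodes thioredoxin-interacting protein, which binds thioredoxin and limits glucose uptake. It read 485 units without UVB and 220 with UVB in WT, and 263 and 509 in KO-labelled cells. The direction after UVB was therefore opposite in the genotypes, and the difference was 2.09, with 1.97 by the second probe set. Xpc, which encodes the damage sensor of global nucleotide excision repair, read 130 and 46.3 in WT and 139 and 152 in KO-labelled cells. Irradiated WT cells stood below the other 3 groups, and the difference was 1.62 from its 1 probe set. The other repair gene past the threshold, Ercc4, had a difference of at least 1.32, but only 1 of its 4 probe sets was above 0 and the mean over them lay at 0.03. The median of 20 repair genes was 0.02, and Ddb2, which acts with Xpc, lay at 0.20.

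The other large positive differences were Wbp2nl (1.65), Sardh (1.60), Bloc1s5 (1.55), Rasl11a (1.53), Gne (1.49), Map3k12 (1.47), Zfp637 (1.40), Zfp385c (1.37), Lhpp (1.36) and Lemd2 (1.36). Most were dim. Map3k12, which encodes the kinase DLK of the JNK pathway, read 57.9 and 33.5 units in WT and 55.0 and 88.1 in KO-labelled cells, with 0.56 by its second probe set. Gstm3, a glutathione S-transferase gene, read 79.2 units in irradiated and 37.6 in unirradiated KO-labelled cells, a difference of 1.29. Bounds included Smim27, at least 4.22-fold higher, Fat2 at least 3.77-fold, Cbfa2t3 at least 3.67-fold, Oas1a at least 3.47-fold, Samd10 at least 3.41-fold and Igsf23 at least 3.31-fold. Fat2, a large cadherin gene of squamous epithelium, read 209 and 18.5 in WT and 175 and 78.4 in KO-labelled cells. For Oas1a, an interferon-induced gene, the gap lay mainly in unirradiated cells, at 12.8 units (below the floor) in KO-labelled and 141 in WT cells.

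The difference of the responses is also the genotype gap after UVB minus the gap before it, and these gaps share no array. Taking each gap relative to its median over all genes, the gap after UVB was the larger part for 200 of the 296 lower genes (67.6%) and 84 of the 141 higher genes (59.6%). Over all tested genes it was larger in 55.9%. On the same scale the gap was past 2-fold after UVB only in 93 lower genes, before UVB only in 24 and at both times in 5. In the remaining 174 neither gap reached 2-fold. Among the 141 higher genes these counts were 45, 27, 3 and 66. Relative to each genotype's median response, 115 of the 296 lower genes were 2-fold up in WT and within 2-fold of the median in KO-labelled cells, and 42 were 2-fold down in KO-labelled cells alone.

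**Figure D4:**
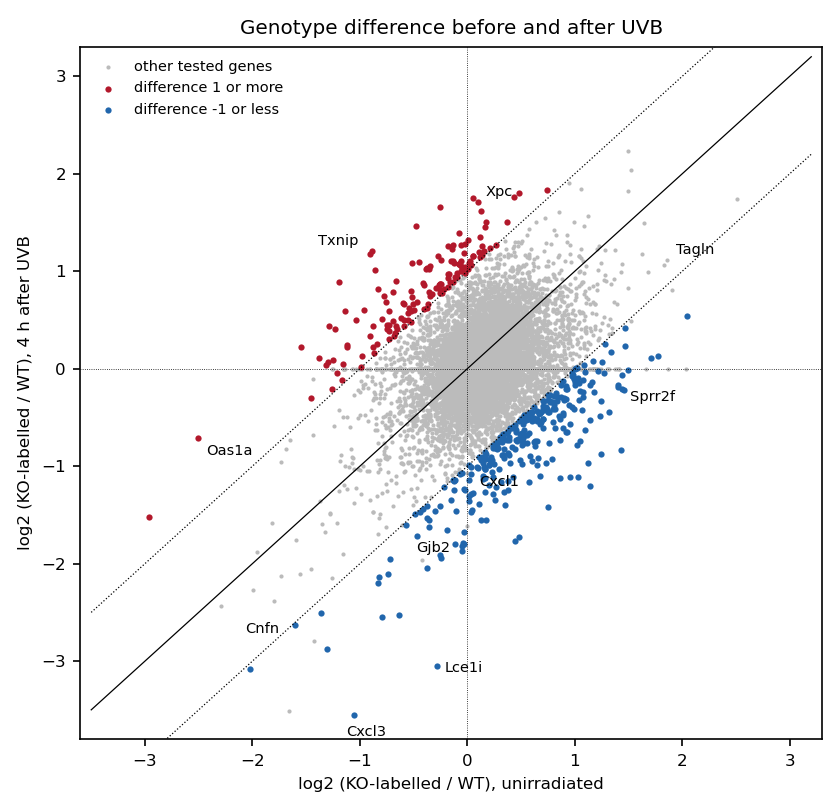
Log2 ratio of KO-labelled to WT signal in unirradiated cells (x axis) and 4 h after UVB (y axis) for each tested gene; the solid line marks no difference of responses and dotted lines a difference of 1 or -1. Lce1i, Gjb2 and Cxcl1 lie near 0 on the x axis and below -1 on the y axis, whereas Sprr2f lies at 1.44 on the x axis and -0.21 on the y axis.

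Genes with a clear increase in 1 genotype gave a second view. Of the 66 genes at least 2-fold higher after UVB in WT cells with an irradiated value at or above the floor, the median response was 1.35 for WT and 0.34 for KO-labelled cells. The difference was below 0 for 62 of these genes and past the threshold for 39. A smaller set of 19 genes was at least 2-fold higher in KO-labelled cells, where their median was 1.20 against 1.10 in WT. The difference was below 0 for 6 of the 19, past the threshold upwards for 6 and downwards for 1, and 10 genes belonged to both sets. Choosing genes by a high WT response favours a negative difference, and choosing them by a high KO-labelled response a positive one, so the sets are given side by side with no test.

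A second probe set on each array repeats the measurement with other probes, though not with other cells. Its values below the floor were raised to the floor. Here and below it was counted also where that left the sign of its difference unsettled. It was available for 91 of the 296 lower genes, and for 60 of them (65.9%) its difference was also below 0. Over all genes whose brightest probe set lay below 0 that share was 67.1%. The second probe set was smaller in size, with a median of -0.39 against -1.17 for the brightest. Of the 91, 33 (36.3%) reached 1.5-fold in the same direction, against 425 of all 3031 genes below 0. At a mean signal of 100 units or more, 38 of 49 lower genes kept the sign (77.6%) and 27 reached 1.5-fold (55.1%), against 67.9% and 12.6% of all such genes. Below 100 units, where 190 of the 296 lower genes lie, 22 of 42 kept the sign (52.4%) and 6 reached 1.5-fold (14.3%), against 63.2% and 20.7% of all such genes. In that range a lower gene's second probe set was thus no more often on its side than that of any gene below 0.

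Second probe sets were on the same side of 0 for a smaller share of the higher genes. Of 55 with a second probe set, 18 had it above 0 (32.7%), below the 45.0% of all genes on that side, and 6 reached 1.5-fold (10.9%), against 6.93%. Named after their values were seen, these included Txnip, Nicn1 (1.30 and 1.06), Nfe2l3 (1.07 and 1.16) and Trub2 (1.02 and 1.04). Lower genes whose second probe set was also past 2-fold numbered 20, among them Ppif, Lce1f, Hbegf, Fosl1, Fst, Ptgs2, Cxcl1 and Fzd5.

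**Figure D5:**
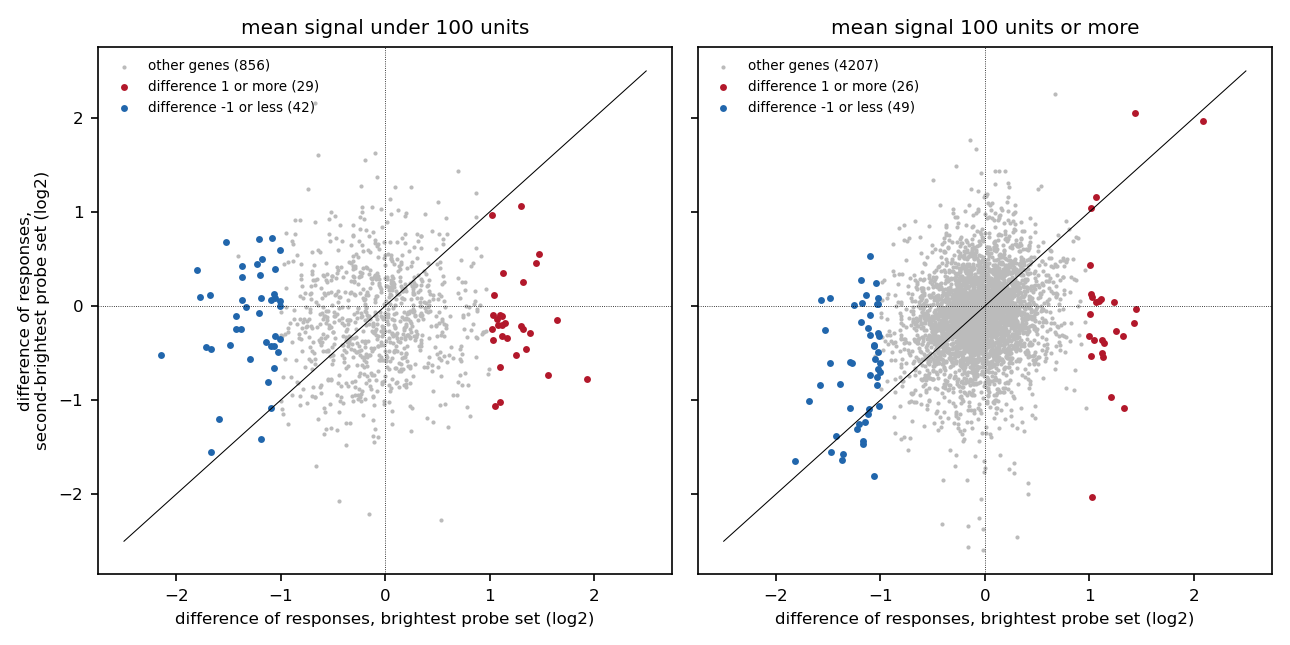
Difference of responses by a gene's brightest (x axis) and second-brightest probe set (y axis), for genes with mean signal under 100 units (left) and 100 units or more (right); the line marks equality. On the right 38 of the 49 lower genes (blue) also lie below 0 on the y axis, while 11 of the 26 higher genes (red) lie above it.

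Lower genes tended to be short. Their median span from first to last base in the RefSeq annotation was 12.5 kb, against 22.0 kb for higher genes and 22.9 kb for all tested genes. The share of lower genes was 5.06% of genes under 5 kb and 1.52% of those between 80 and 160 kb, while higher genes made up 1.12% and 1.43%. Both groups were dimmer than the rest, with a median signal of 69.1 units in lower and 65.7 in higher genes against 183 overall.

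In many lists 0 members were past the threshold, which in lists of this size is near the 3.84% of all genes and says little about them. The p38 pathway list, with upstream kinases and substrates, had 0 of 22 past the threshold and a median of 0.00. Its largest differences were those of the kinase gene Mknk1 at -0.95 (1 of 2 probe sets below 0), Mapk11, which encodes p38beta, at -0.87 and Map2k6, a kinase that activates p38, at 0.73. A second probe set of Mapk11, with values below the floor, lay at -0.04. Map2k6 read 117.5 and 51.0 units in WT and 331 and 239 in KO-labelled cells, so its signal was higher under the KO label before UVB too. Cholesterol synthesis genes had a median of 0.11 with 0 of 19 past the threshold, while their own median responses were -1.10 for WT and -1.02 for KO-labelled cells. Ribosomal proteins lay at 0.07 (26 tested), reference genes at 0.02 (12), replication genes at -0.12 (26), G2 and mitosis genes at -0.15 (28), heat shock proteins at -0.26 (17) and apoptosis regulators at 0.01 (19), each with 0 past the threshold. Notch genes lay at 0.05 with 0 of 15, and circadian clock genes at 0.01 with 0 of 15. Among 28 Wnt genes the receptor gene Fzd5 (-1.20) was lower and Fzd2 (1.06, but 0.20 in the mean over probe sets) higher, and in the TGF-beta list Fst alone of 26 was past the threshold.

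Markers of other cell types were detected, some at unequal levels in the genotypes. The summed signal of 26 fibroblast markers was 7298 and 5945 units in WT without and with UVB, and 14451 and 9912 in KO-labelled cells. Of 24 tested fibroblast markers 0 were past the threshold for the difference of responses, with a median of -0.30. Melanocyte markers summed to 8872, 6113, 11805 and 7208 units in the same order, with a median of -0.28 and 1 of 14 lower, Sox10, by 1 of its 2 probe sets. Muscle markers summed to 4725, 3770, 7002 and 5832, of which Acta2, the smooth muscle actin gene, made 91.7% to 94.8%. Of 6 tested, 1 was past the threshold, Des, at least 2.82-fold higher (0.97 after centring), and 10 of 17 were below the floor on all 4 arrays. Of 19 leukocyte markers 10 were below the floor on all 4 arrays, the defining Ptprc, Cd207 and Itgam among them, and 4 were above it on all 4, led by Cd68 at 383 and 480 units in WT and 269 and 298 in KO-labelled cells. Of 12 endothelial markers 5 were below it throughout, including Pecam1, and 2 above it, Eng and Egfl7 at no more than 93.2 units. Of 7 erythroid markers 6 were below it throughout. Late differentiation genes summed to 27754, 36425, 18671 and 15321 units, so the cultures also differed in them before UVB. The part of these differences in the results was not tested, and in such cultures fewer cells of a type and less RNA per cell cannot be told apart.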

How the data were processed

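Each of the 4 groups has 1 array. The authors deposited a linear intensity value for each probe set, made with MAS5 per the submitters' processing notes; its version and scaling target are not named in the sources used. Of 45101 probe sets, 34945 carry 1 gene symbol in the platform annotation and were used. Another 932 carry several symbols, 9160 none, and 64 are controls. The brightest probe set stood for its gene. Values below the floor, which is the median of all probe set means, were raised to it before taking log2. A difference counts at 2-fold only if raising values to the floor could not have enlarged it. The steps were tested on simulated data. Python 3.11.15 and pandas 2.3.3 were used.

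In total 42 gene lists were used, and 853 of their 939 entries matched a gene. Named genes are Mapk14, the 12 largest measured differences and 6 largest bounds in each direction with probe sets of the same sign, the 3 largest members of each list and any member past 2-fold; gene models, Xist and Y-linked genes are left out. Exceptions are said to be chosen after their values were seen. The comparison, lists and rules were chosen with earlier results of these data known. Alternatives were quantile normalization, median centring, a floor at the 25th percentile (9.38 units) or 75th percentile (129 units), a pseudocount of 16 units with no floor, the mean over probe sets, no _x_at probe sets, and thresholds of 1.5-fold and 3-fold.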

Additional observations from a re-analysis of the deposited data

Results flagged for a closer look

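Adamtsl4, a secreted matrix protein gene, was the only tested gene past 2-fold in opposite directions in the genotypes. It read 23.6 and 60.2 units in WT cells without and with UVB and 55.0 and 26.2 in KO-labelled cells, and its difference of responses was -2.34 or lower. The opposition was not tested, all values lie near the floor, and the gene has 1 probe set.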

How the results depend on the processing

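The lower and higher counts of 296 and 141 became 1292 and 699 with the floor at the 25th percentile, 45 and 5 with it at the 75th, 805 and 416 with a pseudocount, 1080 and 543 at 1.5-fold, and 46 and 15 at 3-fold. Quantile normalization gave 261 higher genes, and lower genes were then 51.6% of all calls, against 67.7% as reported and 57.7% after centring. Centring, quantile normalization for the lower genes, the mean over probe sets and leaving out _x_at probe sets kept each count within 1.5 times. The genes counted changed more. Of the 296 lower genes 194 remained under quantile normalization, 208 after centring and 157 with a pseudocount. Of the 141 higher genes 133, 125 and 67 remained. The median difference ranged from -0.10 to 0.02. Among genes of 400 units or more, lower against higher genes numbered 12 and 1 after quantile normalization and 23 and 3 after centring. Medians of chemokines, other cytokines, MAPK phosphatases, vasoactive peptides and late differentiation genes lay at -0.32 or lower under each alternative. No paired analysis was possible because each group has 1 array, and for the same reason no array can be left out. Differences of dim genes spread most over genes, with an SD of 0.60 below 50 units.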
